A study of Rhipicephalus microplus with 8 samples.

Results

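A set of 39 transcripts stood above a common reference pool in larvae and in nymphs of Rhipicephalus microplus, the cattle tick, collected while feeding. They were the rows of the deposited value table with a log2 ratio to the pool of 1 or higher on all 8 arrays, which is at least 2-fold, and with a larvae minus nymph difference of the stage means between -1 and 1. Of 13459 array features, 74 were at 1 or higher on every array, and 56 of these also met the bound on the stage difference. A row was kept only if its stage difference equalled one deposited larvae against nymph fold change within 1.2e-09, which gave it a probe name. That left 39 of the 6516 transcripts that could be joined in this way through all 8 arrays. The transcripts were thus chosen by their ratios on the 8 arrays, and these are given as a description, with no test. What the rule did not use are the authors' deposited comparisons with 3 further groups, coded G, O and S.

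The larvae were whole ticks collected on day 4 after infestation of Holstein-Friesian cattle and the nymphs were whole ticks collected on day 7, all of the Mozambique strain and of mixed sex. Each stage had 2 biological replicates, described by the labels only as such, and each replicate was hybridised on a first array and on a technical repeat array. Tick RNA carried Cy5 on every array. The pool carried Cy3 and held whole ticks of days 4, 5, 7, 13 and 15, of mixed sex, and female adult tissues of day 20, all of the same strain. No array had the dyes swapped, so a dye bias of a probe would enter its ratio to the pool. Both stages were themselves part of the pool. The codes G, O and S are not spelled out in the labels; the design text speaks of tested tissues and of tissues of day 20, so these groups may be dissected adult tissues. A comparison with them would then set a whole body against a single tissue, and fewer cells of a type cannot be told apart from less RNA per cell.

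Rhipicephalus microplus is a tick that completes its larval, nymphal and adult feeding on a single animal. The larva attaches, feeds and moults into a nymph on the host, and the nymph feeds and moults into an adult there. In a 2-colour array with a common reference, each spot reports the level of a transcript in the sample relative to the mixed RNA of the pool. A transcript above the pool is therefore richer in that sample than in the average of the life stages and tissues mixed. The probes are named by assembled contigs or by expressed sequence tags, which are partial reads of cloned cDNA. The files do not pair these names with genes, and 0 of them matched the gene table of the USDA_Rmic assembly. No gene, role, genome position or sequence is therefore given for any of the 39.

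Among the 39, Contig names numbered 23, or 59.0%, against 72.8% of all 6516 transcripts used on 8 arrays. Names beginning with CK numbered 8, or 20.5%, against 9.5%. Names beginning with CV numbered 5, those with TC 2 and those with EW 1. None of the 39 names carries a gene word. Of the 56 rows that met the numerical rule, 17 were not joined through all 8 arrays. Among these, 15 were joined through between 5 and 7 arrays, read as the authors having left out the other spots, and 2 were not joined at all. The 17 had lowest arrays between 1.02 and 2.48.

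Levels against the pool came close to 4-fold in the median member in larvae and were lower in nymphs. Larva means ranged from 1.13 to 3.04 on the log2 scale with a median of 1.98, or 3.96-fold above the pool. Nymph means ranged from 1.17 to 2.88 with a median of 1.76, or 3.40-fold. Over all 6516 transcripts the medians were -0.05 in larvae and -0.08 in nymphs. The lowest of a member's 8 arrays had a median of 1.35 over the set, and the range from lowest to highest array had a median of 0.91 and reached 2.11.

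Contig1924 and Contig1240 had the highest lowest array of the set. Contig1924 stood at 3.31 and 3.13 on the first and repeat arrays of larva replicate 1, at 2.72 and 3.00 on those of larva replicate 2, at 2.79 and 2.83 on those of nymph replicate 1 and at 2.83 and 2.62 on those of nymph replicate 2. Its stage means were 3.04 ± 0.25 in larvae and 2.77 ± 0.06 in nymphs (SD, n = 2). The arrays of the stages overlapped, and larva replicate 1 was the highest of the 4 samples. Contig1240 stood at 3.47, 3.40, 2.55 and 2.72 on the larva arrays and at 2.92, 2.67, 3.22 and 2.71 on the nymph arrays, in the same order. Its means were 3.04 ± 0.56 and 2.88 ± 0.12 (SD, n = 2). Both arrays of larva replicate 1 lay above all other arrays, and those of larva replicate 2 lay within or below the nymph range.

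**Figure D1:**
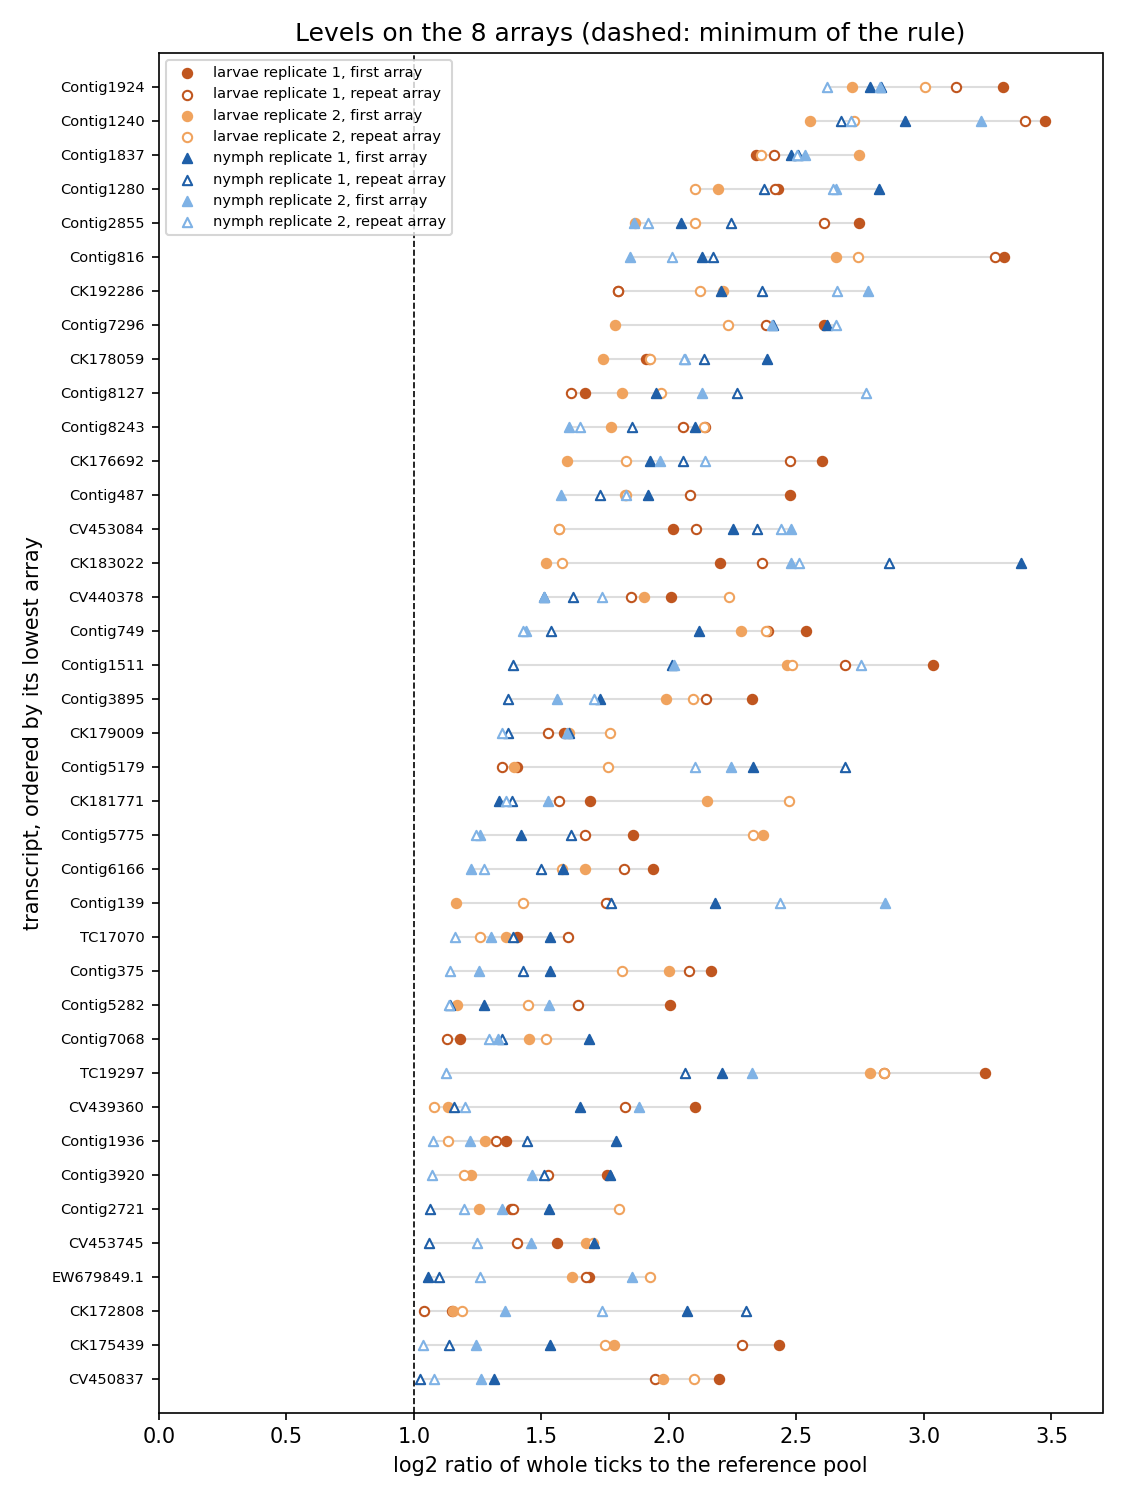
Log2 ratio to the reference pool on each of the 8 arrays (x axis) for the 39 transcripts (y axis, ordered by the lowest array), with circles for larvae, triangles for nymphs, filled marks for first arrays and open marks for technical repeats. All points lie right of the dashed line at 1 because the rule demands it; Contig1924 and Contig1240 are set farthest from it.

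The gap between the means of the 2 biological replicates had a median of 0.27 in larvae and 0.21 in nymphs, against 0.19 and 0.29 over all 6516 transcripts; whether these differ was not tested. The gap was at most 0.5 for 29 members in larvae, or 74.4%, against 87.3% of all transcripts, and for 35 in nymphs, or 89.7%, against 71.8%. Larva replicate 1 was the higher larva replicate for 26 of the 39, or 66.7%, against 54.2% of all transcripts. The first array of larva replicate 1 lay above its own technical repeat for 32 of the 39, or 82.1%, against 57.0%. In larva replicate 2 the first array was the higher one for 11, or 28.2%, against 49.8%. Every array entered the rule, and the part of single arrays in the choice of members was not tested.

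The stage difference was bounded by the rule, so its counts are given as a description only. Larvae had the higher mean for 25 of the 39, or 64.1%, where 48.7% of the 6516 transcripts did, and nymphs for 14. Larva and nymph arrays did not overlap for 16 members, a share of 41.0%, where 41.8% of the 6516 transcripts did not overlap. In the authors' deposited table for the stages, the threshold of 0.05 on adjusted p was passed by 11 members with the higher level in larvae and 8 with the higher level in nymphs, beside backgrounds of 22.7% and 21.5% of 10695 probes. TC19297 and Contig816, named after their values were seen, lay closest to the bound. The stage means of TC19297 were 2.93 ± 0.16 for larvae and 1.93 ± 0.29 for nymphs (SD, n = 2). Its nymph arrays were at 2.21, 2.06, 2.32 and 1.13, so that the repeat array of nymph replicate 2 alone brought it near the minimum. Contig816 had means of 3.00 ± 0.42 for larvae and 2.04 ± 0.16 for nymphs (SD, n = 2), with every larva array above every nymph array.

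**Figure D2:**
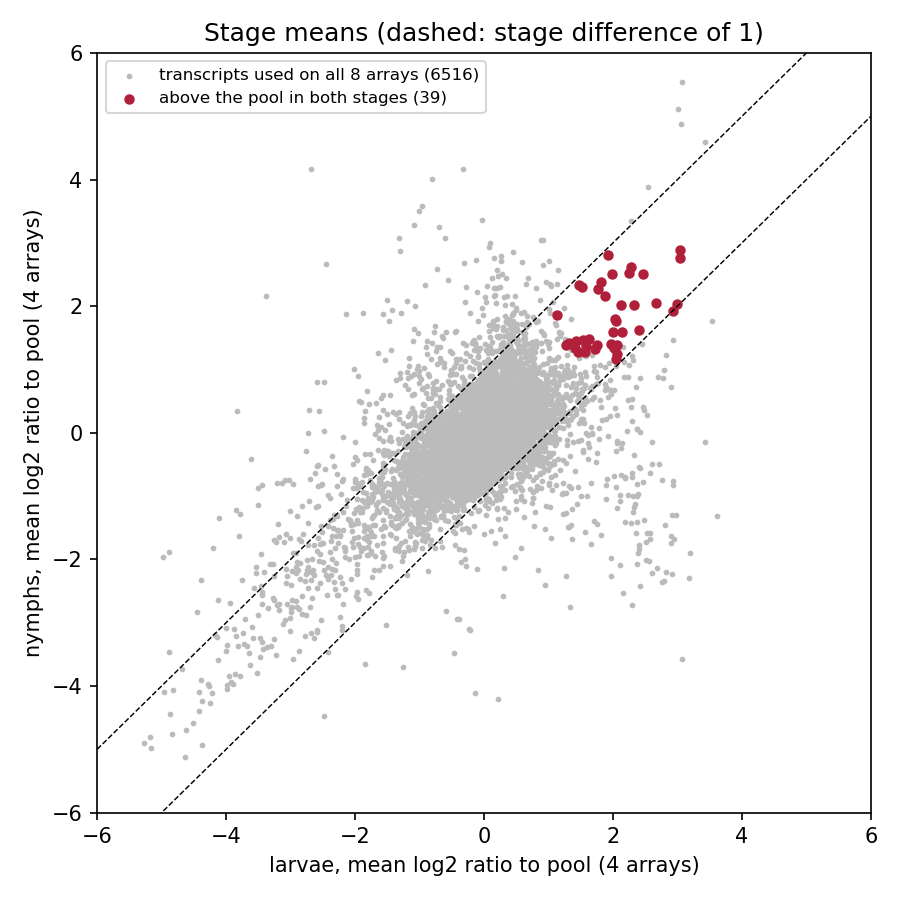
Mean log2 ratio to the pool over the 4 larva arrays (x axis) and the 4 nymph arrays (y axis) for the 6516 transcripts used on all 8 arrays (grey) and the 39 above the pool in both stages (red). The red points fill the upper right corner between the dashed lines at a stage difference of 1, with larva means from 1.13 to 3.04 and nymph means from 1.17 to 2.88.

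At the edge of the rule, the members with the lowest arrays nearest above 1 were CV450837 and CK175439, each at 1.03. Just outside lay Contig8186 with a lowest array of 0.9997 and Contig5078 with 0.993. At the bound on the stage difference, TC19297 was inside with 0.998 and Contig816 with 0.957, and CV457389 and Contig7800 were outside with 1.04 and 1.05.

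Levels in the coded groups were obtained by taking the deposited larvae against group log2 fold change from the larva mean. This assumes that the deposited fold changes of G, O and S rest on the same pool. Per-array values of these groups were not analysed here, so the levels carry no error. Most members were below the pool in the coded groups. The median level was -0.58 in G, -1.41 in O and -0.55 in S, and the medians over all 6516 transcripts were -0.01, -0.02 and -0.04. A level below the pool in other material follows in part from the choice of members, since the pool holds both stages. In G, 27 members were below the pool, in O 37 and in S 30, where 50.3%, 51.2% and 53.3% of all transcripts were. All 3 coded groups were below the pool for 20 members (background 17.3%), and all were at -1 or lower for 7 (background 4.85%).

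Group O held the lowest levels. It was at -1 or lower for 30 of the 39, where 19.5% of all transcripts were, and at 1 or higher for none, where 6.75% were. In G, 14 members were at -1 or lower (background 18.4%) and 4 at 1 or higher (background 8.38%). In S, 12 members were at -1 or lower (background 8.99%), none at 1 or higher (background 2.55%), and 27 within 1 of the pool (background 88.5%). Contig5282 and CK175439 were the members above the pool in O, at 0.13 and 0.03. The highest level in S was that of Contig5179, at 0.56, named after its value was seen.

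**Figure D3:**
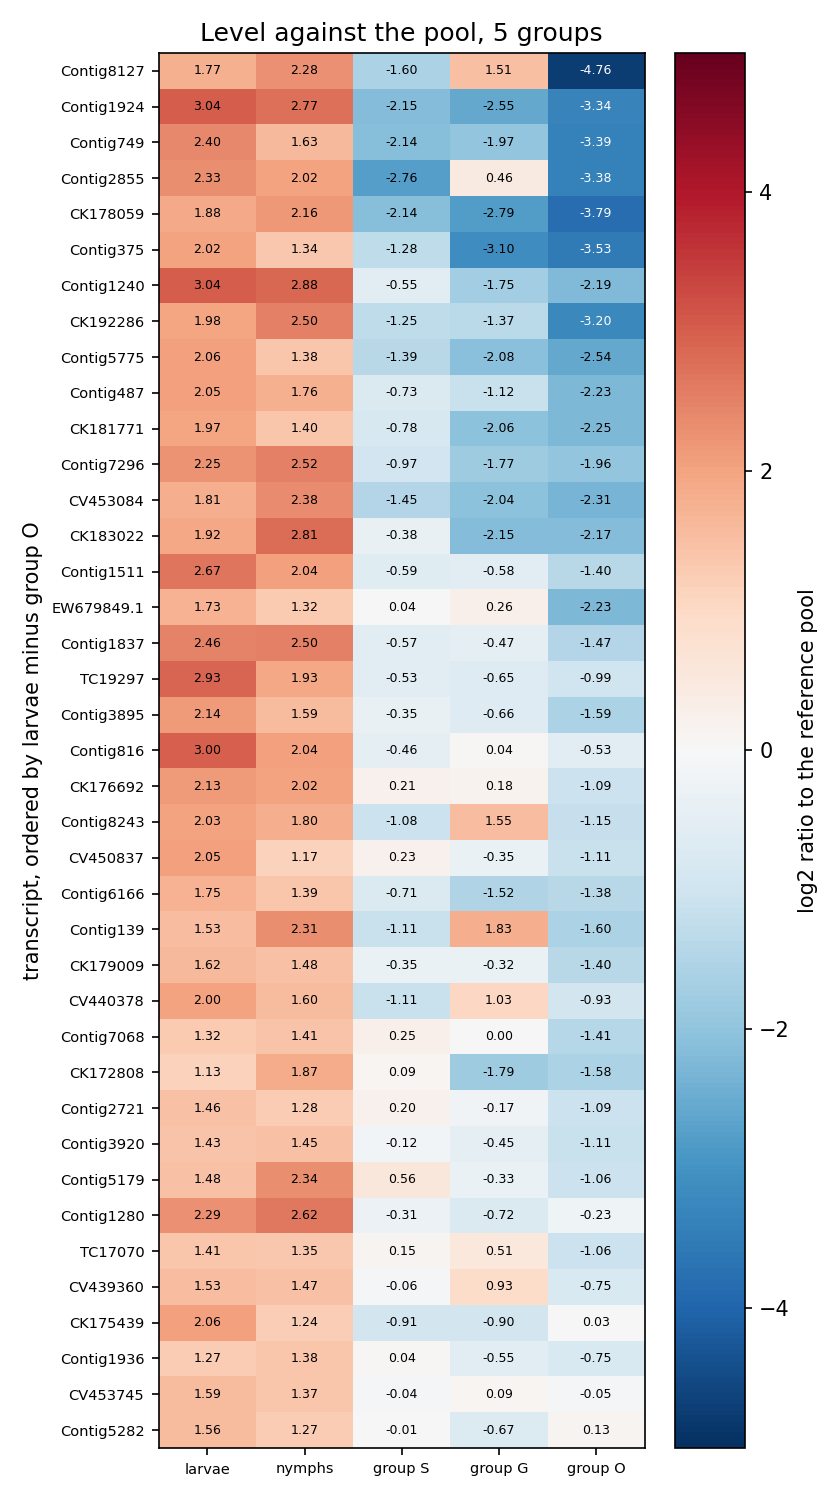
Heat map of the level against the pool (log2, colour and printed value) of the 39 transcripts in larvae, nymphs and the coded groups S, G and O, ordered by the deposited larvae against O difference. The stage columns are positive throughout by the rule, group O is the column with most negative values, and 12 rows are above 0 in G, 9 in S and 2 in O.

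The authors' deposited tables test each stage against each coded group, and these tests use the same larva and nymph arrays as the rule. In those deposited tables of the authors, all 39 were higher in larvae than in O past an adjusted p of 0.05, where 38.1% of the 10695 probes were, and all 39 were higher in nymphs than in O, where 38.5% were. Against S all 39 passed as higher in larvae (background 25.5%) and all 39 as higher in nymphs (background 23.6%). Against G the numbers were 36 in larvae (background 28.2%) and 36 in nymphs (background 25.7%). A single fold change of the 39 transcripts in these 6 tables was negative, that of Contig139 for larvae against G. Passing all 6 were 35 members, where 6.24% of the probes did, and 31 of them were at least 2-fold higher in each (background 2.52%). Because a high larva or nymph value enters both the rule and these fold changes, the counts were in part fixed by the choice. In the deposited stage fold changes all arrays count equally, technical repeats included. If the deposited p-values were computed in the same way, the error behind them is that of arrays, not of biological replicates.

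In the authors' deposited tables the differences were widest against O. Larvae exceeded O by 11.5-fold in the median member and nymphs exceeded it by 10.6-fold. Against G the medians were 7.57-fold and 4.77-fold, and against S 6.73-fold and 5.64-fold. Both stages were at least 8-fold above O for 20 members (background 1.74%), above G for 12 (background 0.739%) and above S for 10 (background 0.281%).

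By the mean of the larva and nymph log2 differences, Contig1924 was the member farthest from G and from S and the second from O. Its derived levels were -2.55 in G, -3.34 in O and -2.15 in S. In the authors' deposited table for larvae against G it was 48.1-fold higher in larvae (log2 difference 5.59, adjusted p = 1.60e-14), and in that for nymphs 39.8-fold. The authors' deposited tables gave it 83.1-fold over O and 36.6-fold over S in larvae. CK178059 was next against G by this mean, though not in larvae alone. Its larva arrays read 1.91, 1.92, 1.74 and 1.93 and its nymph arrays 2.38, 2.14, 2.06 and 2.06, so that all nymph arrays were above all larva arrays. The level was -2.79 in G, and the authors' deposited tables put it 25.4-fold higher in larvae than in G and 30.9-fold higher in nymphs, with adjusted p of 2.83e-14 and 2.66e-14.

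Contig8127 was the member farthest from O. It read 1.67, 1.62, 1.82 and 1.97 on the larva arrays and 1.95, 2.27, 2.13 and 2.77 on the nymph arrays. Larvae were the lower stage, and 1 larva array overlapped the nymphs. Its level in O was -4.76, the lowest of any member in any group. The authors' deposited tables put its larval level 92.4-fold and its nymphal level 132-fold above O (log2 differences 6.53 and 7.04, adjusted p = 6.67e-16 and 2.88e-16). Contig2855 was the member next to Contig1924 against S. Its larva arrays read 2.75, 2.61, 1.87 and 2.10 and its nymph arrays 2.05, 2.24, 1.86 and 1.92, with larva replicate 1 above all other samples. Its level in S was -2.76, the lowest of the set there. In the authors' deposited tables it was 34.0-fold higher in larvae than in S and 27.4-fold higher in nymphs.

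At the other end, Contig139 and Contig8243 differed least from G by the mean of the larva and nymph log2 differences. Contig139 read 1.76, 1.75, 1.16 and 1.43 on the larva arrays and 2.18, 1.77, 2.85 and 2.44 on the nymph arrays, every nymph array being the higher. Its level of 1.83 in G lay between its larva mean of 1.53 ± 0.33 and its nymph mean of 2.31 ± 0.47 (SD, n = 2). In the authors' deposited tables neither stage differed from G past the threshold, with log2 differences of -0.31 for larvae and 0.48 for nymphs and adjusted p of 0.270 and 0.0895. Contig8243 read 2.14, 2.05, 1.77 and 2.14 in larvae and 2.10, 1.86, 1.61 and 1.65 in nymphs, with a level of 1.55 in G. Its deposited log2 differences from G in the authors' tables were 0.48 and 0.26, with adjusted p of 0.107 and 0.403. These p-values do not show that the levels were equal. Contig8127 also failed the test for larvae against G, where the authors' deposited table gives a log2 difference of 0.26 (adjusted p = 0.250). The remaining member short of all 6 calls was CV439360, named after its values were seen, for which the authors' deposited table of nymphs against G gives adjusted p = 0.0713.

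By the mean of the larva and nymph log2 differences, the smallest differences from O were those of Contig5282 and CV453745. Contig5282 read 2.00, 1.64, 1.17 and 1.45 in larvae and 1.27, 1.14, 1.53 and 1.14 in nymphs, with overlapping stages. The authors' deposited tables put its larval level 2.70-fold and its nymphal level 2.20-fold above O, with adjusted p of 1.90e-06 and 2.50e-05. CV453745 read 1.56, 1.40, 1.68 and 1.70 in larvae and 1.70, 1.06, 1.46 and 1.25 in nymphs. Its levels in the coded groups were all next to the pool, at 0.09 in G, -0.05 in O and -0.04 in S. Its folds over O in the authors' deposited tables were 3.10 for larvae and 2.67 for nymphs. Contig7068 and Contig2721 differed least from S by the same mean, though other members had smaller differences in a single stage. Their levels in S were 0.25 and 0.20, and both were between 2.09-fold and 2.39-fold higher in the stages in the authors' deposited tables.

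Differences between the coded groups use no larva or nymph array, because the larva mean cancels when one deposited fold change is taken from another. The arrays that chose the members thus do not enter them, but the rule also rests on the pool. The pool holds female adult tissues, and a transcript rich in a tissue of the pool has lower ratios to it. If the coded groups are such tissues, these differences depend in part on the choice of members. They come with no p-value, and no test was made. The median member was higher in G than in O by 0.79 on the log2 scale, against 0.16 over the 6516 transcripts. S minus O had a median of 1.15, against 0.14, and S minus G a median of 0.31, against 0.01. For the 52 transcripts that met the rule without nymph replicate 2, the median S minus G was 0.15. G was above O for 34 of the 39 (background 56%) and S above O for 35 (background 55.4%). S was above G for 24 (background 50.6%).

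At a difference of at least 1, 14 members were higher in G than in O (background 19.3%) and 0 were higher in O by that much (background 15.7%). For S and O the numbers were 21 (background 20.3%) and 0 (background 13.5%). For S and G they were 5 higher in S (background 12.3%) and 5 higher in G (background 7.84%). O was the lowest of the 3 groups for 33 members, where it was for 46.5% of the 6516 transcripts. S was the highest for 22 (background 30%) and G for 14 (background 35%). The order from S over G to O was that of 20 members (background 21%) and the order from G over S to O that of 13, or 33.3% (background 25.4%).

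**Figure D4:**
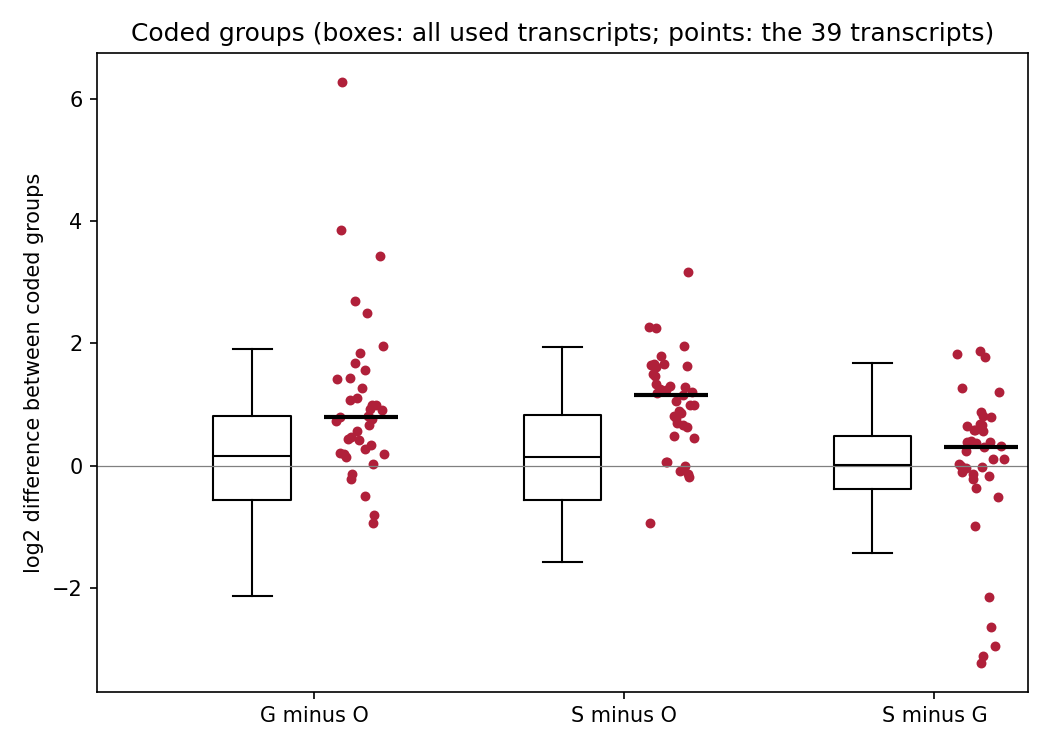
Log2 differences between the coded groups (y axis) for the 39 transcripts (red points, thick line at their median) beside all 6516 transcripts used on 8 arrays (box from lower to upper quartile with the median line, whiskers from the 5th to the 95th percentile). The points of G minus O and S minus O lie mostly above 0, with medians of 0.79 and 1.15, and those of S minus G spread to both sides with a tail below -2.

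The widest differences between the coded groups belonged to members with G as their highest coded group. Contig8127 was 77.1-fold higher in G than in O and Contig2855 14.4-fold (G minus O 6.27 and 3.85). The same 2 transcripts had the lowest S minus G, at -3.10 for Contig8127 and -3.22 for Contig2855. Their levels in G were 1.51 for Contig8127 and 0.46 for Contig2855, and the authors' deposited tables put the larval level of Contig2855 3.65-fold and its nymphal level 2.94-fold above G. Together with Contig139, Contig8243 and CV440378 they were the 5 members at least 2-fold higher in G than in S. CV440378 read 2.01, 1.85, 1.90 and 2.23 in larvae and 1.51, 1.62, 1.51 and 1.74 in nymphs, every larva array being the higher. Its levels were 1.03 in G, -0.93 in O and -1.11 in S. In 4 of the 5, Contig8127 excepted, the levels in S and O differed by at most 0.63. Contig8127 was 8.97-fold higher in S than in O.

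Other members were lowest in O and about level in G and S. EW679849.1 read 1.69, 1.68, 1.62 and 1.92 in larvae and 1.05, 1.10, 1.86 and 1.26 in nymphs, where the first array of nymph replicate 2 was apart from the other 3. Its levels were 0.26 in G, 0.04 in S and -2.23 in O, so that S stood 4.83-fold above O. Highest in S relative to G were CK172808 and Contig375. CK172808 read 1.15, 1.04, 1.15 and 1.19 in larvae and 2.07, 2.30, 1.36 and 1.74 in nymphs, with no overlap of the stages. It stood at 0.09 in S, -1.79 in G and -1.58 in O, a 3.68-fold difference between S and G. Contig375 read 2.17, 2.08, 2.00 and 1.82 in larvae and 1.53, 1.43, 1.25 and 1.14 in nymphs, also without overlap. It was at -1.28 in S, -3.10 in G and -3.53 in O, which is 3.54-fold higher in S than in G and the lowest level of the set in G.

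CK175439 ran against the common order. It read 2.43, 2.29, 1.78 and 1.75 in larvae and 1.53, 1.14, 1.24 and 1.03 in nymphs, with no overlap. O was its highest coded group, at 0.03, against -0.90 in G and -0.91 in S, or 1.91-fold higher in O than in either. O was the highest of the 3 groups for 3 members (background 35%), the others being Contig5282 and Contig1280, the latter named after its values were seen. The levels of Contig1280 were -0.23 in O, -0.31 in S and -0.72 in G, below a larva mean of 2.29 ± 0.19 and a nymph mean of 2.62 ± 0.04 (SD, n = 2).

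The mirror set of transcripts below the pool, with all 8 arrays at -1 or lower and a stage difference within 1, held 225 of the 6516. Its medians for G minus O, S minus O and S minus G were -2.90, -1.85 and 1.14, against 0.79, 1.15 and 0.31 in the 39. The signs of both differences from O were opposite between the sets, and the difference between the sets was not tested. Both sets were chosen on ratios to a pool that holds adult tissues. If the coded groups are such tissues, opposite signs would follow in part from the choice. The 15 rows joined through fewer arrays, which the rule leaves out, had medians of 0.33, 1.59 and 0.77. O was the lowest group for 9 of these 15, where it was for 84.6% of the 39 and 46.5% of the 6516 transcripts. In the authors' deposited comparisons, 13 of the 15 passed all 6 as higher in both stages (background 6.24%). These rows also met the array minimum of the rule, so this count too was in part fixed by the choice of high larva and nymph values.

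Scaling the arrays changed which transcripts met the rule. Over all 13459 features the array medians lay between 0.20 and 0.32 in larvae and between -0.07 and -0.05 in nymphs, and over the 6516 transcripts between -0.13 and -0.02. With each array centred on its median over all features, 36 transcripts met the rule, 30 of them among the 39. After quantile normalisation over all features 41 met it, and 15 of these were among the 39. That scaling set the minimum of 1 at deposited values between 1.20 and 1.75 on the larva arrays and between 0.51 and 0.68 on the nymph arrays. Quantile normalisation over the 6516 transcripts alone, chosen after seeing the data, gave 39 transcripts with 32 in common.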

How the data were processed

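Whole larvae and nymphs were measured on 2-colour arrays, 4 arrays and 2 biological replicates per stage. The deposited value table gives a log2 ratio of sample over pool per feature and array, with 0 missing values. The 7 comparison tables deposited by the authors hold log2 differences, the same as signed fold, and adjusted p-values, with unadjusted p-values for larvae against O, per the file headers. The submitters' processing notes name limma. For background correction, array normalisation and the leaving out of spots, the method is not given in the sources used here. Signal over background is unknown.

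Rows were joined to probes where the plain mean of 4 larva arrays minus that of 4 nymph arrays equalled 1 fold change within 1.2e-09. The tables are additive to within 4.80e-08. Levels in G, O and S are the larva mean minus the deposited fold change. Technical repeats were averaged before each SD. Fold changes on the ratio scale are powers of 2 of the log2 values. The join and rule were tested on simulated data. There the planted members lay well above the minimum, all other values were capped below it, and no spots were left out. It therefore does not cover transcripts near the limits of the rule or joins through fewer arrays. Python packages were numpy 2.4.6 and pandas 2.3.3.

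Members and lists were chosen with earlier results of these data known. Named transcripts are those with the highest lowest array, the 2 largest and 2 smallest mean stage differences from each coded group, the 2 highest and 2 lowest differences between coded groups, and those next to the array minimum. Alternatives were array scaling, rule thresholds, the arrays used, the join and leaving out each replicate. Precision is limited by the 2 biological replicates per stage, which the technical repeats do not add to.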

Additional observations from a re-analysis of the deposited data

Results flagged for a closer look

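Among 16 named transcripts, each stage's 4 arrays were examined for 1 array far from the other 3 relative to their range, which chance gives for about 1 in 20 groups of independent values. The 4 arrays are 2 biological replicates with a technical repeat each, so this rate need not hold here. This was the case for 2 of 32. In CK178059, the first array of larva replicate 2 was at 1.74, below the other larva arrays at 1.91, 1.92 and 1.93. In Contig7068, the first array of nymph replicate 1 was at 1.69, above the other nymph arrays at 1.29, 1.33 and 1.34. In both cases the technical repeat of the same replicate lay with the other arrays.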

How the results depend on the processing

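The sign of each median level and of each difference between coded groups stayed the same under all 16 alternatives to the rule, the scaling and the join. The number of transcripts was 70 with every array at 0.8 or higher, 16 at 1.5 or higher, 22 with a stage difference within 0.5 and 64 with the join through any arrays. Of these, 56, 14, 20 and 54 were higher in both stages than all 3 coded groups past the authors' adjusted p (background 6.24% of 10695 probes). As with the 39, these counts were in part fixed by the choice of high larva and nymph values. The median level in G was -1.12 with quantile normalisation, -0.92 with every array at 1.5 or higher and -0.38 with the stage difference within 0.5. That in O was -1.85 with quantile normalisation, -2.18 at 1.5 or higher and -1.23 with the join through any arrays. That in S was -0.35 at 0.8 or higher, -1.03 at 1.5 or higher, -0.33 with technical repeat arrays only and also with the stage difference within 0.5, and -0.35 with the join through any arrays. G minus O was 1.00 both at 1.5 or higher and within 0.5. Why these values moved was not tested. Without 1 biological replicate, between 42 and 52 transcripts met the rule. Between 36 and 46 of them passed all 6 comparisons (background 6.24%), again in part fixed by the choice. The median levels then lay between -0.62 and -0.40 in G, -1.47 and -1.40 in O and -0.54 and -0.40 in S. The differences lay between 0.77 and 0.93 for G minus O, 1.05 and 1.18 for S minus O and 0.15 and 0.35 for S minus G, the lowest being that without nymph replicate 2. No paired analysis was possible because no test was run on the 8 arrays: the rule used them all, and the p-values printed are the authors' own. Both alternatives restricted to the 6516 transcripts were added after seeing the data. Signal over background is unknown, so weak spots cannot be told from strong ones.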
